A study of Mus musculus with 12 samples.

Results

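Enteroendocrine cells (EEC) are the scattered hormone cells of the gut epithelium. They sense nutrients in the lumen and release peptides such as GIP, GLP-1, PYY and cholecystokinin from secretory granules that hold chromogranins. They arise from crypt progenitors through the transcription factor Neurog3, and dietary fat is one of the stimuli that makes them secrete. The comparison described here is that of EEC from mice on a high fat diet (HFD) with EEC from mice on a normal diet (ND), across all expressed genes. Its members are the 6 EEC libraries, 3 HFD and 3 ND, of the 12 libraries in the series.

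All mice were male C57BL/6N with the genotype Neurog3eYFP/+, so that 1 Neurog3 allele carries the fluorescent reporter in every group, and all were 12 weeks old. ND mice ate Safe D04 throughout, and HFD mice were moved at 8 weeks of age to D12492 for 4 weeks. Jejunal villi were enriched with EDTA, dissociated with dispase and sorted by flow cytometry. Cells with eYFP are the EEC, and cells without it, here called non-EEC, are everything else in the preparation. Each diet had 3 mice, but no label links a sorted fraction to its mouse, and p-values measure the spread between these libraries. Sequence counts were deposited per gene. Levels are given below as CPM, counts scaled to the library size, in replicates 1, 2 and 3, and differences as log2 fold changes of HFD against ND with the standard error of the fit. CPM values of different genes are not compared, since they depend on transcript length.

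The reporter gene checked the sort in both diets. Neurog3 stood at 298, 139 and 96.2 CPM in ND EEC and at 144, 24.4 and 61.8 CPM in HFD EEC. In the non-EEC it stood at 0.0778, 0.708 and 0.63 CPM under ND and 1.27, 0.254 and 1.02 CPM under HFD. Chga, which encodes the granule protein chromogranin A, stood at 2800.4, 1315 and 1742 CPM in ND EEC and at 5555, 2888 and 4879 CPM in HFD EEC. In the non-EEC Chga stood at 172, 20.4 and 8.02 CPM under ND and 31.7, 40.8 and 32.8 CPM under HFD. Total counts lay between 9543183 and 29054281 per library, and the deepest library was ND EEC replicate 3. Certain libraries stood apart on marker lists, and results that rest on them are given with and without them. ND EEC replicate 3 held the fewest T cell transcripts of the ND EEC, HFD EEC replicate 2 the most enterocyte transcripts of the EEC, and HFD EEC replicate 3 the most immediate early transcripts. Among the non-EEC, ND replicate 1 stood apart in summed hormone genes, which were 8566, 460.3 and 203 CPM in the ND non-EEC.

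The genes were sorted into classes by where they are expressed. A gene was called mainly in EEC if its level over both diets was at least 2 log2 units higher in EEC than in non-EEC, and higher in non-EEC if it was at least 1 log2 unit lower. All others were called shared. Of 17087 genes tested, 1788 were mainly in EEC, 13023 were shared and 2276 were higher in non-EEC. Transcripts of carried-over cells can fall into the last class but also into the shared one. Of the T cell genes tested, 24 were higher in non-EEC and 1 was shared. Of the enterocyte genes tested, 10 were higher in non-EEC and 20 were shared. The classes use the HFD libraries too, so a gene that is higher in HFD EEC is more likely to be called mainly in EEC, and counts by class are a description. In bulk RNA, fewer cells of a type and less RNA per cell cannot be told apart.

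No gene passed the threshold for HFD against ND in EEC. The edgeR quasi-likelihood test called 0 of 17087 genes at an adjusted p below 0.05 (0%), with a smallest adjusted p of 0.0641. On the same counts DESeq2 called 143 genes higher and 322 lower, and limma-voom with quality weights called 7 higher and 1 lower. Without ND EEC replicate 3, the library with the fewest T cell transcripts of its group, edgeR called 11 higher and 206 lower. At an unadjusted p below 0.05 there were 717 genes higher (4.20% of those tested) and 896 lower (5.24%), 9.44% in both directions. The 3 HFD libraries were all above the 3 ND libraries for 1430 genes (8.37%) and all below for 1126 (6.59%). Of the genes mainly in EEC, 6.82% were higher and 1.62% lower at that p, with a median difference of 0.30. The genes were 122 and 29 in number, and leaving out HFD EEC replicate 3 reduced the 122 to 59. Of the genes higher in non-EEC, 6.72% were higher and 22.7% lower, with a median of -0.29. Shared genes had 3.39% higher and 2.69% lower and a median of -0.005, against a median of 0.002 over all genes tested. With classes taken from the ND libraries alone, an alternative added after the data were seen that still shares the ND libraries with the comparison, 1767 genes were mainly in EEC. Of these 85 were higher (4.81%) and 49 lower (2.77%), with a median of 0.12. The class of genes higher in non-EEC then had 9.22% higher and 17.4% lower, and its median turned to 0.06. The class of genes higher in non-EEC over both diets included 70 genes with 3 or fewer counts over the 6 EEC libraries.

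The balance of higher and lower genes depended on how libraries were scaled. With scaling factors computed over the genes mainly in EEC, the median of all genes moved to -0.25, and the genes at an unadjusted p below 0.05 were 293 higher and 1041 lower. Genes with no overlap between diets were then 622 higher and 1694 lower. That scaling centres the genes mainly in EEC by construction, and their median moved from 0.30 to -0.03. Every list median given below with a direction kept its sign on that scale unless stated otherwise.

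**Figure D1:**
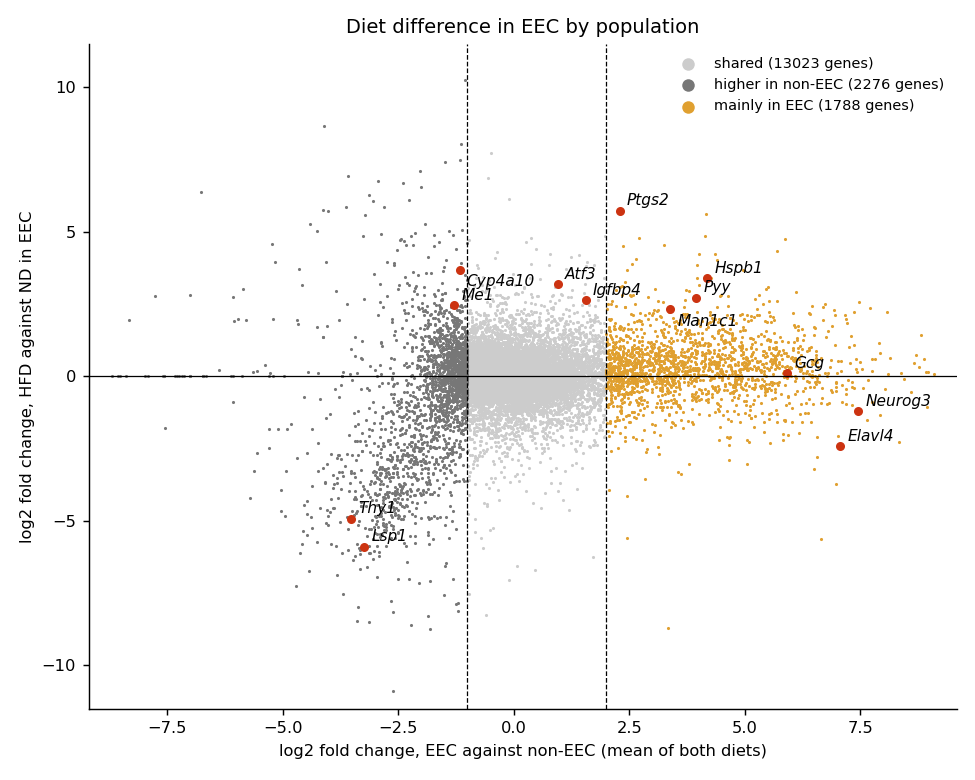
Each point is 1 of the 17087 genes tested. The x axis gives the log2 fold change of EEC against non-EEC over both diets, the y axis the log2 fold change of HFD against ND in EEC, and dashed lines mark the limits of the 3 classes at -1 and 2. Ptgs2 and Hspb1 lie high on the right among genes mainly in EEC, Cyp4a10 and Me1 lie high among genes higher in non-EEC, and Thy1 and Lsp1 lie low on the left.

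Among genes classed as mainly in EEC, the named genes with the smallest p encoded an inflammatory lipid enzyme, a small heat shock protein and a Golgi mannosidase. Ptgs2 (ENSMUSG00000032487; chromosome 1, 150100031 to 150108227), which encodes cyclooxygenase 2, the inducible enzyme of prostaglandin synthesis, stood at 0.094, 0.866 and 1.15 CPM in ND EEC and at 31.6, 29 and 58.5 CPM in HFD EEC. It was barely detected in 1 ND library, and the lowest HFD library was more than an order of magnitude above the highest ND library. The difference was 5.73 ± 0.95 (adjusted p = 0.0683 by edgeR). In the non-EEC Ptgs2 stood at 2.6 ± 1.8 and 0.5 ± 0.652 CPM (mean ± SD, n = 3) under ND and HFD, which did not pass the test (adjusted p = 0.089). Ptgs2 is in its class through the HFD libraries, since its EEC minus non-EEC difference was -1.79 on the log2 scale under ND and 6.37 under HFD.

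Hspb1 (ENSMUSG00000004951; chromosome 5, 135887919 to 135889563) encodes the small heat shock protein HSP25, a chaperone that also protects actin filaments. It stood at 5.17, 12.7 and 15.1 CPM in ND EEC and at 57.7, 73.9 and 215 CPM in HFD EEC. The diets did not overlap, which the rule for naming genes required, and HFD replicate 3 was far above the other HFD libraries. The difference was 3.39 ± 0.66 (adjusted p = 0.0691 by edgeR). Man1c1 (ENSMUSG00000037306; chromosome 4, 134561690 to 134704290), a Golgi enzyme that trims mannose from N-glycans, stood at 12.5, 12.8 and 42.9 CPM and at 128, 89.6 and 125 CPM. Here it was ND replicate 3 that lay apart, closer to the HFD libraries than the other ND libraries were, and the difference was 2.32 ± 0.47 (adjusted p = 0.0727 by edgeR).

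The other genes of this kind were spread over cell surface, matrix and lysosomal functions. Ptpru, a receptor tyrosine phosphatase, stood at 7.14, 15.7 and 7.37 CPM in ND EEC and 30.4, 31.7 and 46.7 CPM in HFD EEC. Jag2, a ligand of Notch receptors, stood at 6.95, 3.12 and 2.24 CPM and 26.5, 17.6 and 20 CPM. Col27a1, a fibrillar collagen gene, stood at 27.9, 10.7 and 24.4 CPM and 77.9, 77.3 and 73.5 CPM. In Col27a1 the HFD libraries were nearly equal, while the ND libraries differed among themselves. Ctsl, which encodes the lysosomal protease cathepsin L, stood at 63.9, 57.3 and 126 CPM and 241, 162 and 333 CPM. Pirt, a membrane protein that binds phosphoinositides and modulates TRP channels, stood at 12.5, 15.9 and 12 CPM and 51.6, 46.3 and 43 CPM. For these 5 genes the log2 differences lay between 1.57 (Ctsl) and 2.39 (Jag2), with adjusted p from 0.126 (Ptpru) to 0.163 (Pirt). The EEC minus non-EEC difference under ND was also below 2 for Jag2 (1.06), Man1c1 (1.15), Ctsl (1.54) and Col27a1 (1.83). Each of the 8 genes kept its direction in all alternatives tried and under each scaling. Of them, Ptgs2 had an adjusted p below 0.05 in the most alternatives, 7, including 0.0347 by edgeR on the scale of genes mainly in EEC. The alternatives reuse the same libraries and are not independent, and the highest adjusted p of Ptgs2 among them was 0.322 (edgeR).

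**Figure D2:**
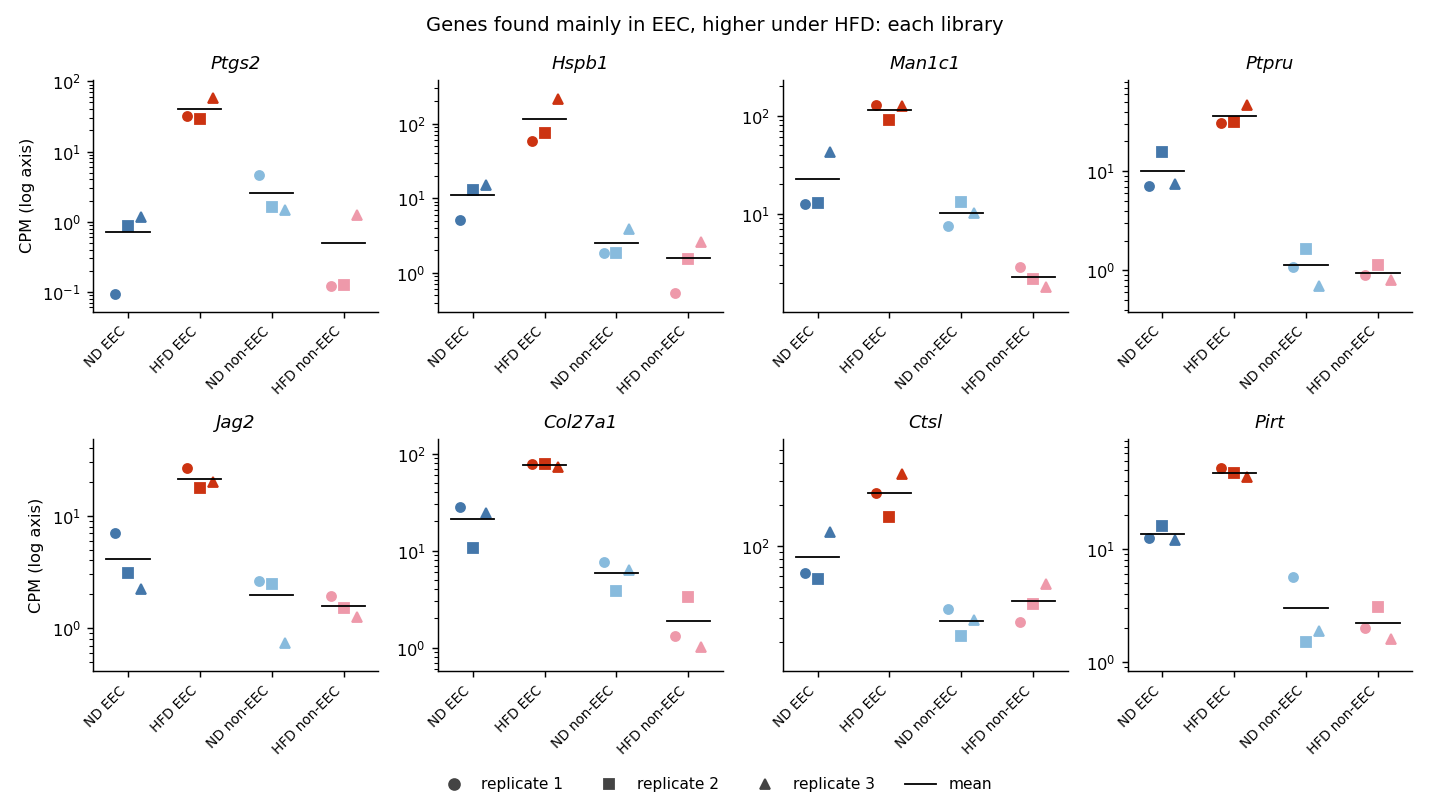
Each panel shows 1 gene classed as mainly in EEC over both diets, with CPM on a log axis and 1 point per library (circle, square and triangle for replicates 1, 2 and 3) in the 4 groups. Black lines are group means. In every panel the 3 HFD EEC libraries lie above the 3 ND EEC libraries, which the rule for naming genes required. The non-EEC levels of Ptgs2, Man1c1 and Col27a1 are lower under HFD.

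A further set of genes mainly in EEC was picked after its values were seen, since it fell outside the level of 10 CPM or the ranks that the naming rule set. Apoa5, which encodes an apolipoprotein that promotes clearance of triglyceride, stood at 0.094, 0.433 and 0.933 CPM in ND EEC and 8.08, 6 and 15.3 CPM in HFD EEC. Hpx, the heme-binding plasma protein hemopexin, stood at 0, 0.0866 and 0.187 CPM and 1.03, 5.47 and 10.6 CPM. Both were below 1 CPM in every ND library and above 1 CPM in every HFD library. Aqp9, a channel for glycerol and water, stood at 1.6, 3.03 and 4.38 CPM and 12.4, 13.8 and 14.3 CPM. Mgll, the lipase that completes the breakdown of triglyceride to glycerol, stood at 48.8, 32.9 and 41.9 CPM and 252, 122 and 138 CPM. The adjusted p in EEC was 0.0727 for Apoa5, 0.0844 for Hpx, 0.194 for Aqp9 and 0.434 for Mgll (edgeR). Hpx is in its class through the HFD libraries. Its EEC minus non-EEC difference on the log2 scale was 1.92 under ND, below the class limit of 2, and 6.38 under HFD. The difference was 2.23 and 10.6 for Aqp9, 2.73 and 4.69 for Mgll and 4.10 and 4.59 for Apoa5.

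The sequence upstream of the 8 genes and of the hormone genes Pyy and Cartpt was searched for 2 motifs, a choice made after the values were seen. The motifs were GAANNTTC, the paired unit that heat shock factors bind, and TGACGTCA, the full cAMP response element. Both read the same on either strand, and no match overlapped another. Promoters of 9 of the 10 genes matched by symbol in RefSeq (GRCm38.p6), and Pirt did not. GAANNTTC lies within 250 bases before the start of 6.69% of 32851 promoters and of 2 of these 9 genes, Hspb1 and Cartpt. TGACGTCA lies in 1.55% of all promoters and in 2 of the 9, Ptpru and Cartpt. The windows of Hspb1 (chr5:135887669-135887918, plus strand), Ptgs2 (chr1:150099781-150100030, plus strand), Ptpru (chr4:131838279-131838528, minus strand) and Cartpt (chr13:99900684-99900933, minus strand) follow, 5′ to 3′, with matches in capitals, to show the gene with 2 heat shock units, the gene with the largest difference of the 8, and both genes with the cAMP element.
Hspb1: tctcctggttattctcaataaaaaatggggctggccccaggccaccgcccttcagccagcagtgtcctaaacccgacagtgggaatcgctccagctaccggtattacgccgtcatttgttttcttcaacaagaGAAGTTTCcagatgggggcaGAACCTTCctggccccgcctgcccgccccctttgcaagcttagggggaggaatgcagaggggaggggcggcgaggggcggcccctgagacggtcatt
Ptgs2: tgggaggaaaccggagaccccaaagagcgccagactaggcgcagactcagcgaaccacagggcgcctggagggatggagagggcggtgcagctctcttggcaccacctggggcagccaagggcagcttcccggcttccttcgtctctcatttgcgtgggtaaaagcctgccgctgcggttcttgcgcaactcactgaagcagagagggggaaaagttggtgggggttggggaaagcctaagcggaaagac
Ptpru: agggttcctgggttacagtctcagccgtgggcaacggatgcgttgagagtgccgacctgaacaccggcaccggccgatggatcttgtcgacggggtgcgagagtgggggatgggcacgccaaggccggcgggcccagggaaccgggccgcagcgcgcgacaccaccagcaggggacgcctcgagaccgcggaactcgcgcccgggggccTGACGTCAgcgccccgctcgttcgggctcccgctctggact
Cartpt: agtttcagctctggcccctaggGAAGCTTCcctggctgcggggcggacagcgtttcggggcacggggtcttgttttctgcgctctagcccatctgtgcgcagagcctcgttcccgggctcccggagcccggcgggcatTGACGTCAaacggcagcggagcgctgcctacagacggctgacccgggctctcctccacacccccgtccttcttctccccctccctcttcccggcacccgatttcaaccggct
In Hspb1 the matches start 117 and 97 bases before the transcript start. In Ptpru the match starts 41 bases before it. In Cartpt the heat shock unit starts 228 and the cAMP element 112 bases before it. A match of letters is no evidence that a factor binds, and the absence of a match in the Ptgs2 window says only that these letters are not in it.

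Of the genes mainly in EEC that were lower under HFD, 1 had an adjusted p below 0.1, and it was not among the 8 named ones. Epb42, which encodes the membrane skeleton protein 4.2, stood at 39.3, 56.2 and 103 CPM in ND EEC and 38.2, 9.23 and 23 CPM in HFD EEC. Elavl4, a neuronal RNA-binding protein gene, stood at 30.5, 8.58 and 5.47 CPM and 4.17, 1.52 and 2.63 CPM. For Epb42 the highest HFD library nearly reached the lowest ND library, and for Elavl4 ND replicate 1 was far above the other ND libraries. Pak3, a kinase expressed in differentiating endocrine cells, stood at 117, 96.4 and 105 CPM and 64.2, 36.1 and 61.2 CPM. Map3k15, a stress kinase, stood at 137, 170.2 and 117 CPM and 79.6, 56.5 and 97.1 CPM. With Scube1, Rab6b, Sgcb and Cfap69 these made the 8 named genes, with log2 differences from -2.41 (Elavl4) to -0.86 (Map3k15), and the smallest adjusted p among them was 0.374 (Epb42, edgeR). Sgcb and Rab6b were also lower in the non-EEC under HFD, by -1.81 ± 0.44 and -5.69 ± 0.82. Their EEC minus non-EEC differences on the log2 scale were 1.61 and 0.45 under ND, below the class limit of 2, and 2.42 and 4.57 under HFD.

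Hormone genes mostly stood higher in HFD EEC, and 3 of them did so without overlap between diets. Of those tested, 13 of 15 had positive differences, with a list median of 1.05. Of the 15, 2 were at an unadjusted p below 0.05, Pyy and Cartpt. The class mainly in EEC held 14 of the 15. Of all genes in that class 64.9% were positive, with a median of 0.30. In the same class 15.04% were higher without overlap and 6.82% were higher at that p. Pyy, the satiety peptide of the distal gut, stood at 136, 54.7 and 169 CPM in ND EEC and 659, 604 and 1116 CPM in HFD EEC. All HFD libraries were at least 3 times the highest ND library. Cartpt, the CART neuropeptide precursor, stood at 27.2, 5.72 and 9.49 CPM and 41.2, 41.2 and 111 CPM, where ND replicate 1 came closest to the HFD libraries. Their differences were 2.73 ± 0.90 (adjusted p = 0.311) and 2.20 ± 0.84 (adjusted p = 0.408, edgeR). Nts, neurotensin, released by fat in the gut, was the third with no overlap, at 1132, 558 and 2009 CPM and 7011, 2992 and 3772 CPM.

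Gip, Gcg and Cck overlapped between diets. Gip, the incretin of duodenal and jejunal K cells, stood at 4909, 1753 and 5728 CPM and 12281, 3979 and 10236 CPM. Gcg, the precursor of GLP-1, stood at 13309, 2723 and 3919 CPM and 12894, 3379 and 5323 CPM, and its difference of 0.11 ± 1.01 ranged from -0.61 to 1.08 over the alternatives. Cck, cholecystokinin, stood at 14756, 2099 and 2121 CPM and 24349, 4654 and 9094 CPM. In each of these genes replicate 2 of HFD was lower than replicates 1 and 3, and for Gcg and Cck replicate 1 was the highest within each diet. Sct (secretin), Ghrl (ghrelin), Sst (somatostatin), Iapp (amylin) and Ucn3 overlapped as well, with differences of 1.34, 0.60, 1.05, 1.60 and 0.35. Tac1, the precursor of substance P made in serotonin cells, was negative at -0.38 ± 0.57. Leaving out ND EEC replicate 2 lowered the list median to 0.57, and leaving out HFD EEC replicate 1 lowered it to 0.29. On the scale of genes mainly in EEC it was 0.64, and there Gcg and Nmu changed sign.

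**Figure D3:**
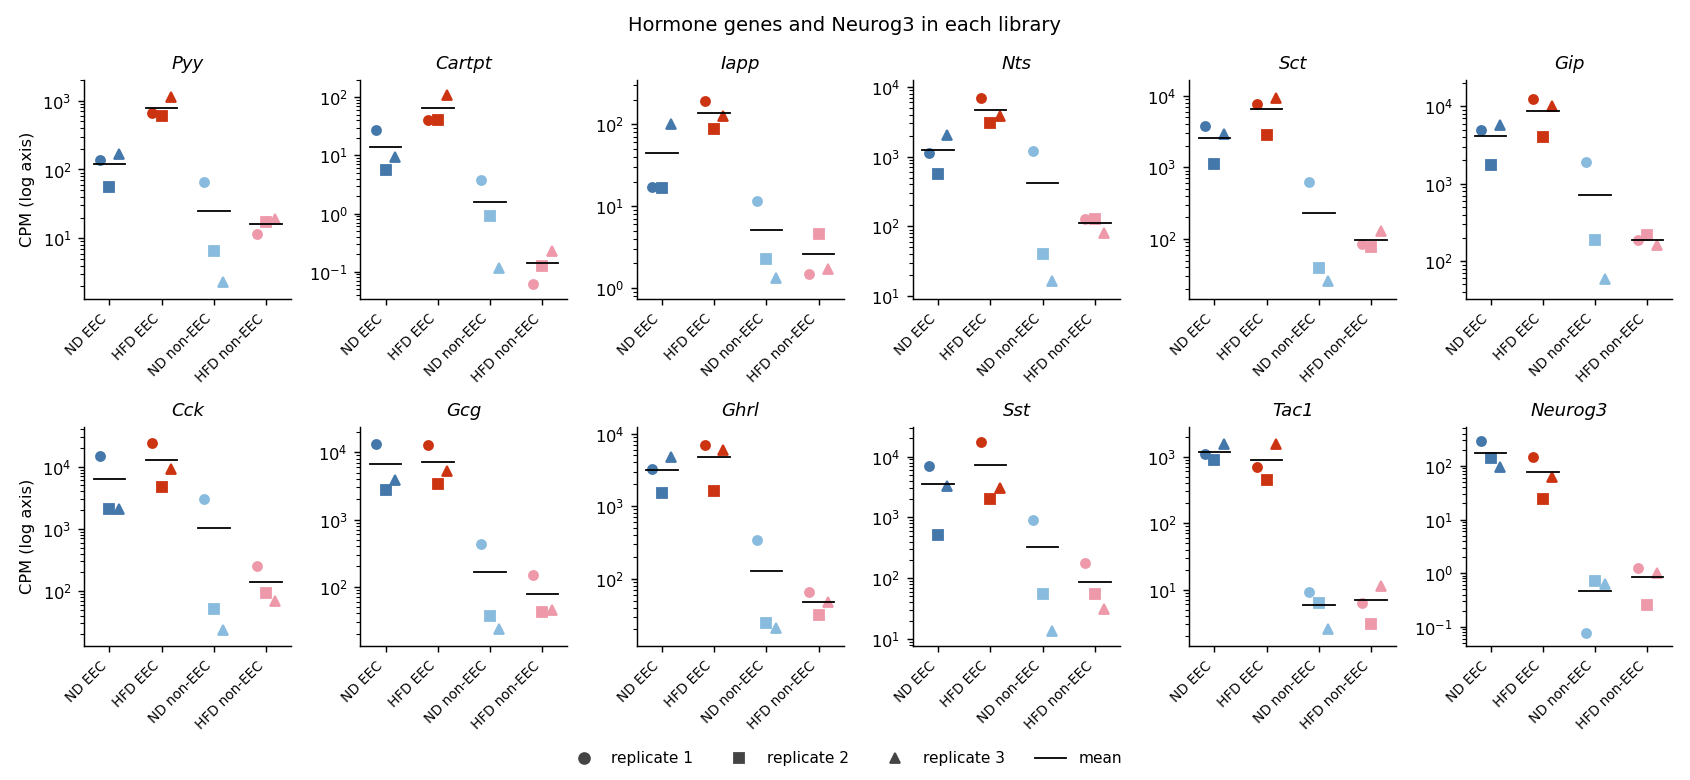
Each panel shows a hormone gene or Neurog3, with CPM on a log axis and 1 point per library (circle, square and triangle for replicates 1, 2 and 3) in the 4 groups. Black lines are group means. The diets separate in EEC for Pyy, Cartpt and Nts, and overlap for the other genes.

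Among granins and prohormone processing genes 12 of 14 were positive, with a median of 0.76 and 1 at an unadjusted p below 0.05. The median was 0.34 without HFD EEC replicate 1, 0.46 without ND EEC replicate 2 and 0.44 on the scale of genes mainly in EEC. The gene at that p was Vgf, a granin-like neuropeptide precursor, at 25, 8.23 and 18.5 CPM and 55.1, 25.5 and 123 CPM, where HFD replicate 2 nearly met ND replicate 1. Ptprn, a granule membrane protein, differed by 1.41 ± 0.82, and Chga by 1.19 ± 0.82 without overlap between diets. Genes of regulated exocytosis were positive for 20 of 23 with a median of 0.40 and 0 at that p, and 7 had no overlap. The median was 0.21 without HFD EEC replicate 3 and 0.069 on the scale of genes mainly in EEC. One of these was Syt7, a calcium sensor of slow exocytosis, at 132, 143 and 145 CPM and 587, 324 and 400.2 CPM. ND libraries were nearly equal there, and each HFD library was at more than 2 times their level. The class mainly in EEC held 12 of the granin and processing genes and 17 of the exocytosis genes. Of all genes in that class 64.9% were positive and 15.04% were higher without overlap.

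The factors that specify EEC did not share that direction. Of endocrine transcription factors 10 of 26 were positive, and the median of -0.26 turned to 0.07 without HFD EEC replicate 2. Neurog3 differed by -1.21 ± 0.66 (adjusted p = 0.628), and the ranges overlapped. Nkx2-2, a homeodomain factor of endocrine lineages, stood at 255, 318 and 464 CPM and 164, 62.6 and 201 CPM with no overlap, and Insm1, a zinc finger factor, at 161, 176 and 399 CPM and 120.3, 98.4 and 173 CPM with overlap. HFD EEC replicate 2 was the lowest library for Neurog3, Nkx2-2 and Insm1. The list's 1 gene at an unadjusted p below 0.05 was Egr3, which also belongs to the immediate early genes.

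Nutrient and hormone receptors were positive for 18 of 24 (median 0.31), with 2 at an unadjusted p below 0.05. On the scale of genes mainly in EEC the median was 0.053 with 0 at that p, and it was 0.16 without ND EEC replicate 2 and 0.19 without HFD EEC replicate 1. The 2 genes were Npy1r, the Y1 receptor that binds PYY and NPY, at 13, 22.9 and 32.8 CPM in ND EEC and 57.8, 43.4 and 94.8 CPM in HFD EEC, and Glp1r, the GLP-1 receptor. Glp1r stood at 45.9, 46.6 and 27.7 CPM and 149, 63.5 and 96.1 CPM. Both were free of overlap, with the margin narrowest at HFD replicate 2. Ion channels of excitable cells were positive for 15 of 18 (median 0.29), with 1 at that p, the calcium-permeable channel gene Trpm2, at 65, 137 and 106 CPM and 189, 332 and 345 CPM. Their median was 0.055 on the scale of genes mainly in EEC. That class held 19 of the receptors and 16 of the channels. Its median was 0.30, with 6.82% of its genes higher at that p, against 4.20% of all genes tested. Serotonin synthesis and storage genes were positive for 8 of 14 with 0 at that p, and the sign of their median changed in 11 of 20 alternatives.

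Immediate early genes, which cells transcribe within minutes of a stimulus or of tissue handling, were the list with the highest median. Of 27 tested 26 were positive, 19 were at an unadjusted p below 0.05 and 19 had no overlap between diets, with a median of 1.43. Their summed level was 3566, 3432 and 3459.9 CPM in ND EEC and 7125, 6896 and 15508 CPM in HFD EEC. The ND libraries were nearly equal, HFD replicates 1 and 2 were near 2 times that level, and HFD replicate 3 was above 4 times. Without HFD EEC replicate 3 the median was 0.97 with 11 genes at that p, and on the scale of genes mainly in EEC it was 1.14 with 13. Most of these genes are shared between populations, and in the non-EEC the list also had a positive median of 0.85.

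Among single immediate early genes, Atf3, a stress-induced bZIP factor, stood at 47.2, 43.7 and 54.2 CPM in ND EEC and 259, 196 and 861 CPM in HFD EEC. Fosb, an AP-1 subunit, stood at 103, 173 and 126 CPM and 386, 364 and 1028 CPM. Ccn1, a secreted matrix protein gene, stood at 21.4, 36.6 and 38.4 CPM and 107, 108 and 234 CPM. In all of them HFD replicate 3 was the highest, and the other HFD libraries also lay above every ND library. The difference of Atf3 was 3.18 ± 0.66 in EEC (adjusted p = 0.0761) and 3.09 ± 0.66 in non-EEC (adjusted p = 0.00981, edgeR). In the non-EEC Fosb and Ccn1 rose as well, by 1.84 ± 0.55 and 1.97 ± 0.53 (adjusted p = 0.0402 and 0.0272, edgeR). Egr3, induced by calcium signals in excitable cells, went the other way in non-EEC, at 0.188, 0.866 and 1.34 CPM and 4.36, 5.29 and 25.9 CPM in EEC and 3.86 ± 0.64 and 0.272 ± 0.24 CPM in non-EEC under ND and HFD. The list held 2 genes mainly in EEC, both named after their values were seen. Npas4, a factor induced by calcium entry, stood at 3.57, 10.3 and 2.89 CPM and 35.5, 28.2 and 61.7 CPM, and Arc, a synaptic activity gene, at 35.4, 39.8 and 33.1 CPM and 113, 57.4 and 271 CPM.

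Heat shock genes summed to 6567, 4232 and 5281 CPM in ND EEC and 10014, 7571 and 11861 CPM in HFD EEC. Of 21 tested 19 were positive, 12 had no overlap and 6 were at an unadjusted p below 0.05 (median 0.77), or 2 without HFD EEC replicate 3. Of all genes tested 8.37% were higher without overlap and 4.20% were higher at that p. Dnajb1, the co-chaperone of inducible HSP70, stood at 368, 305 and 218 CPM and 852, 621 and 1808 CPM. Bag3, a co-chaperone of selective autophagy, stood at 17.8, 23 and 19.4 CPM and 53.7, 54.8 and 81 CPM, with HFD replicates 1 and 2 nearly equal. Hspa1a stood at 226, 147 and 164 CPM and 368, 469 and 770.5 CPM, and reads of this gene cannot be told with certainty from those of its near-identical copy Hspa1b. The non-EEC median of the list was 0.03. Genes of the unfolded protein and integrated stress responses were positive for 23 of 29 (median 0.42), with 6 at that p. There were 2 at that p without ND EEC replicate 1 (median 0.42), 3 without ND EEC replicate 2 (median 0.23), 0 without HFD EEC replicate 3 (median 0.34) and 2 on the scale of genes mainly in EEC (median 0.16), and the median was 0.235 without HFD EEC replicate 1. Ppp1r15a, the phosphatase subunit that restores translation after stress, stood at 34.2, 12.6 and 32.5 CPM and 77.5, 63.3 and 157 CPM. Ddit3 (CHOP), Eif2ak3 (PERK) and Atf4 differed by 1.14, 1.02 and 0.78.

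Shared genes outside these lists included Igfbp4 (ENSMUSG00000017493; chromosome 11, 99041244 to 99054392), which encodes a binding protein of insulin-like growth factors. It stood at 5.73, 10.1 and 5.78 CPM in ND EEC and 49.5, 36.3 and 48.6 CPM in HFD EEC, with a difference of 2.64 ± 0.45 (adjusted p = 0.0683 by edgeR) and of 0.30 ± 0.43 in the non-EEC. Gla, lysosomal alpha-galactosidase, stood at 17.9, 15.2 and 24.1 CPM and 57.8, 52.2 and 84.8 CPM, and Zfp622, a zinc finger protein of ribosome assembly, at 44, 33.7 and 41 CPM and 115, 85.9 and 161 CPM. None of these 3 genes had overlapping diets, which the naming rule required. HFD replicate 3 was the highest library for Gla and Zfp622 but not for Igfbp4. Maff, a small Maf factor, and Lamb3, a chain of the basement membrane protein laminin, differed by 2.73 ± 0.52 and 2.79 ± 0.57 in EEC and by 2.77 ± 0.52 and 3.35 ± 0.58 in non-EEC.

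Cholesterol synthesis genes, nearly all shared, were positive for 22 of 25 (median 0.56), with 7 at an unadjusted p below 0.05. Fdft1, squalene synthase, stood at 49.3, 46.1 and 26.6 CPM in ND EEC and 147, 72.7 and 93.2 CPM in HFD EEC. Hmgcs1, the cytosolic HMG-CoA synthase of the mevalonate pathway, stood at 144, 182 and 165 CPM and 366, 224 and 461 CPM. Insig1, a sterol sensor that retains SREBP, stood at 119, 43.4 and 35.7 CPM and 169, 124 and 172 CPM. All were free of overlap, although ND replicate 1 of Insig1 nearly met HFD replicate 2. The non-EEC median of the list was -0.15. On the scale of genes mainly in EEC the EEC median was 0.26 and 1 gene was at that p. There were 13 at that p without ND EEC replicate 1 and 3 without ND EEC replicate 2.

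Of the fatty acid genes classed as higher in non-EEC, Cyp4a10 and Me1 stood higher in every HFD EEC library, which the naming rule required. Both are in this class through the HFD libraries. Their EEC minus non-EEC differences on the log2 scale were 0.56 and -0.34 under ND and -2.90 and -2.23 under HFD. Cyp4a10, a fatty acid hydroxylase, stood at 1.41, 0.606 and 1.34 CPM and 8.6, 26.8 and 8.56 CPM in EEC, and Me1, malic enzyme, at 4.04, 7.8 and 8.65 CPM and 36.2, 50.8 and 26.7 CPM. Their differences were 3.68 ± 0.70 and 2.46 ± 0.48 in EEC (adjusted p = 0.0691 and 0.0691) and 7.14 ± 0.81 and 4.36 ± 0.52 in non-EEC (adjusted p = 0.00162 and 0.00162, edgeR). HFD replicate 2, the EEC library with the most enterocyte transcripts, was the highest for both genes, and the other HFD libraries also lay well above ND. Without it, Cyp4a10 and Me1 kept their direction.

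Enterocyte transcripts were compared across the sort to set these values in context. Summed levels of 30 enterocyte genes were 25048, 17906 and 27918 CPM in ND EEC and 15712, 35075 and 17475 CPM in HFD EEC, so the diets overlapped. In the non-EEC they were 31492, 5803 and 5587 CPM under ND and 55784, 131679.7 and 110412 CPM under HFD. The EEC mean was 165% of the non-EEC mean under ND and 22.9% under HFD. The same ratio was 78.4% and 21.3% for Me1, 142% and 13.4% for Cyp4a10 and 103% and 15.2% for Fabp1, the liver-type fatty acid binding protein. The ratio of Me1 was below that of the enterocyte sum under ND and near it under HFD. Those of Cyp4a10 and Fabp1 were below it under both diets. Whether carried-over enterocytes contributed to the EEC values was not tested.

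PPAR targets as a list were positive for 19 of 22 (median 0.66, 3.41 in non-EEC), with 7 at an unadjusted p below 0.05. The median was 0.35 without HFD EEC replicate 2, and 4 genes were at that p without ND EEC replicate 2 or 3 or HFD EEC replicate 1. Fatty acid oxidation genes were positive for 23 of 30 (median 0.36, 5 at that p) and fatty acid synthesis genes for 13 of 16 (median 0.41, 4 at that p). The oxidation median was 0.13 without HFD EEC replicate 2 and 0.14 on the scale of genes mainly in EEC, with 2 genes at that p in each. Leaving out replicate 2 or replicate 3 of ND EEC also left 2 such oxidation genes, as did leaving out replicate 1 of HFD EEC. Leaving out replicate 3 of HFD EEC left 3, and so did leaving out replicate 1 of the HFD non-EEC. The synthesis median was 0.83 without ND EEC replicate 1 and 0.21 on that scale. Scd1, the desaturase that makes oleate, stood at 0.188, 2.43 and 0.124 CPM and 4.17, 6.54 and 3.01 CPM, and Srebf1, the factor that drives lipogenic genes, at 30.1, 35.1 and 18.9 CPM and 60, 55.8 and 43.4 CPM. Acot1, an acyl-CoA thioesterase, stood at 13.2, 4.5 and 5.72 CPM and 23.2, 22 and 19 CPM, and rose in the non-EEC (4.32 ± 0.54, adjusted p = 0.00162). Lipid absorption and chylomicron genes were positive for 17 of 25 with a median of 0.20, which turned to -0.35 without HFD EEC replicate 2, and 0 were at that p. Fabp1 overlapped between diets in EEC, at 987, 558 and 910.1 CPM and 790.2, 2829.7 and 1354 CPM, with HFD replicate 2 the highest. Slc2a2, the GLUT2 sugar transporter, was lower in EEC at 116, 85.9 and 153 CPM and 10.8, 52.3 and 15.7 CPM.

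Other genes higher in non-EEC and higher in HFD EEC lay outside the lipid lists. Nop2, a nucleolar RNA methyltransferase, stood at 2.82, 6.41 and 3.55 CPM and 28.2, 18.8 and 12.8 CPM, Nfil3, a circadian bZIP repressor, at 5.17, 5.89 and 6.41 CPM and 10.3, 22.6 and 38.3 CPM, and Samm50, a protein of the mitochondrial outer membrane, at 27.6, 21.6 and 15.9 CPM and 80, 51.6 and 37.7 CPM. Their differences in non-EEC were 0.14 ± 0.45, 0.23 ± 0.49 and 0.69 ± 0.36, and none passed the test there. The EEC level of Nop2 was 18.3% of the non-EEC level under ND and 78.3% under HFD.

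T cell genes had the lowest median of the 34 lists. All 25 T cell genes were lower in HFD EEC, 24 of them at an unadjusted p below 0.05 and 22 without overlap, with a median of -4.08. Their summed level was 2178, 1947 and 331 CPM in ND EEC and 31.7, 68.2 and 119 CPM in HFD EEC. ND replicate 3 was far below the other ND libraries and still above every HFD library. Without it the median was -4.64, with 25 genes at that p. In the non-EEC the sums were 6404, 11068 and 16243 CPM under ND and 488, 80.4 and 609 CPM under HFD. The EEC mean was 13.2% of the non-EEC mean under ND and 18.6% under HFD.

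Several of the single genes with the smallest p among those lower are expressed in lymphocytes. Thy1, a T cell surface antigen, stood at 15.7, 19.1 and 2.36 CPM in ND EEC and 0.385, 0.358 and 0.451 CPM in HFD EEC. Lsp1, a leukocyte actin-binding protein gene, stood at 35.7, 26.8 and 7.06 CPM and 0.0641, 0.269 and 0.826 CPM. Ikzf1 (Ikaros, a lymphoid factor) stood at 67.2, 67.9 and 24.6 CPM and 1.92, 2.69 and 4.66 CPM. In each, all HFD libraries lay below ND replicate 3, the lowest ND library. The naming rule required that the diets of these genes not overlap. The difference of Thy1 was -4.92 ± 0.73 in EEC (adjusted p = 0.0683) and -4.89 ± 0.67 in non-EEC (adjusted p = 0.00201). The test of the difference between these diet effects gave an adjusted p of 0.992 (edgeR). Trgv2 (a T cell receptor gamma segment), Stat4 (a factor of cytokine signalling in T cells) and Cnn2 (calponin 2) differed in EEC by -5.11, -5.48 and -3.37. Of 112 genes with an adjusted p below 0.1 in EEC, 95 were of the class higher in non-EEC, 89 of them lower under HFD. Genes mainly in EEC made up 6.

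**Figure D4:**
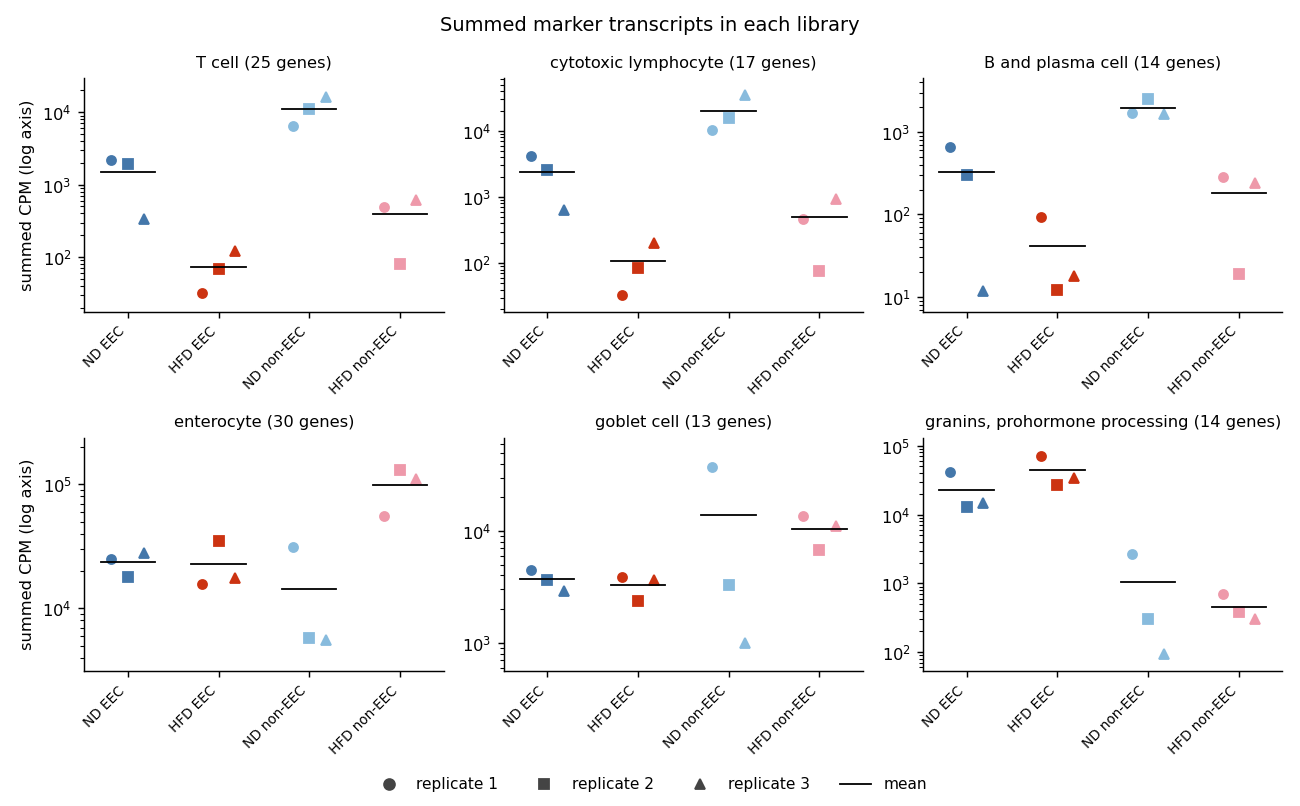
Each panel gives the summed CPM of a marker list on a log axis, with 1 point per library (circle, square and triangle for replicates 1, 2 and 3) in the 4 groups and a line at the group mean. T cell and cytotoxic lymphocyte sums are lower in HFD than in ND on both sides of the sort, enterocyte sums overlap between diets in EEC, and granin sums are highest in HFD EEC replicate 1.

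Cytotoxic lymphocyte genes were lower for 14 of 17 (median -3.89, 11 at an unadjusted p below 0.05). Gzma, granzyme A, stood at 2399, 1374 and 325 CPM in ND EEC and 22.8, 39.9 and 92.9 CPM in HFD EEC. B and plasma cell genes were lower for 11 of 12 (median -2.76, 3 at that p), with sums of 659, 302 and 11.8 CPM and 92.3, 11.9 and 18.1 CPM that overlapped through ND replicate 3. Their median was -1.61 without ND EEC replicate 1, with 1 gene at that p, and -3.37 with 7 without ND EEC replicate 3. MHC class II genes were lower for 9 of 10 (median -2.25, 7 at that p and 7 without overlap). They are not only leukocyte genes, since villus epithelium can present antigen, and 5 of the 10 tested were classed as shared. Cd74, the invariant chain, stood at 492, 199 and 604 CPM in ND EEC and 35.3, 90.9 and 84.4 CPM in HFD EEC, and H2-Ab1, a class II beta chain, at 138, 65.5 and 232 CPM and 28.8, 34.2 and 40.2 CPM. In contrast to the T cell genes, ND replicate 3 was the highest library for both genes.

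Interferon response and immunoproteasome genes were lower for 26 of 29 (median -0.91, 9 at an unadjusted p below 0.05 and 9 without overlap). Gbp7, an interferon-induced GTPase, stood at 7.14, 26.9 and 21.4 CPM and 2.44, 2.6 and 2.63 CPM, with HFD libraries nearly equal. Zbp1, a sensor of unusual nucleic acids, stood at 23, 18.6 and 34.8 CPM and 5.2, 4.21 and 1.65 CPM, and Ifi47 at 158, 29.4 and 32.3 CPM and 10.8, 11 and 8.04 CPM. ND replicate 3 was the highest for Zbp1 and replicate 1 for Ifi47. In non-EEC the same genes differed by -3.83 ± 0.57, -2.62 ± 0.54 and -3.11 ± 0.61. The T cell sum was also lower under HFD, and ND replicate 3 had the lowest T cell sum of its group. The part of lymphocytes in these values was not tested. Shared genes that were lower, Nfatc1, Il16, Zdhhc18, Cdh23 and Dok1, were lower in non-EEC as well, by -3.77 ± 0.51, -4.65 ± 0.58, -3.14 ± 0.37, -5.41 ± 0.88 and -3.22 ± 0.74. Tmem229a was not, with -4.28 ± 1.09 in EEC and -0.31 ± 0.98 in non-EEC, and its ND value rested on replicate 1 (46.7, 6.93 and 3.23 CPM).

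Apart from myeloid genes, markers of other villus cells had few genes at an unadjusted p below 0.05. Of 13 myeloid genes tested 9 were lower and 4 were positive (median -0.30). At that p 4 were lower, and 4 were lower without overlap, against 5.24% and 6.59% of all genes tested. The 6 myeloid genes classed as higher in non-EEC had a median of -2.77. Goblet cell genes were lower for 8 of 12 (median -0.38, -0.62 without HFD EEC replicate 1 -0.22 without HFD EEC replicate 2 and -0.72 on the scale of genes mainly in EEC), and Muc2, the gel-forming mucin, stood at 634, 461 and 217 CPM in ND EEC and 231, 229 and 174 CPM in HFD EEC, with overlap. The medians of tuft cell, Paneth cell, stem cell, stromal, myeloid and cell cycle genes changed sign when 1 library was left out. Among 12 tested genes of the mitochondrial genome 1 was positive (median -0.39), and the median turned to 0.23 without ND EEC replicate 1. Cytoplasmic ribosomal protein genes were positive for 28 of 30 (median 0.38), with 2 at an unadjusted p below 0.05. On the scale of genes mainly in EEC the median was 0.10 with 0 at that p, and leaving out ND EEC replicate 2 (median 0.27), HFD EEC replicate 3, replicate 2 of the ND non-EEC, or replicate 1 of the HFD non-EEC, also gave 0. The 18 clock genes had 3 higher and 2 lower at that p, and Per1, a light- and stimulus-induced clock gene, stood at 27.3, 37.9 and 26.5 CPM and 42.1, 73.2 and 75 CPM.

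**Figure D5:**
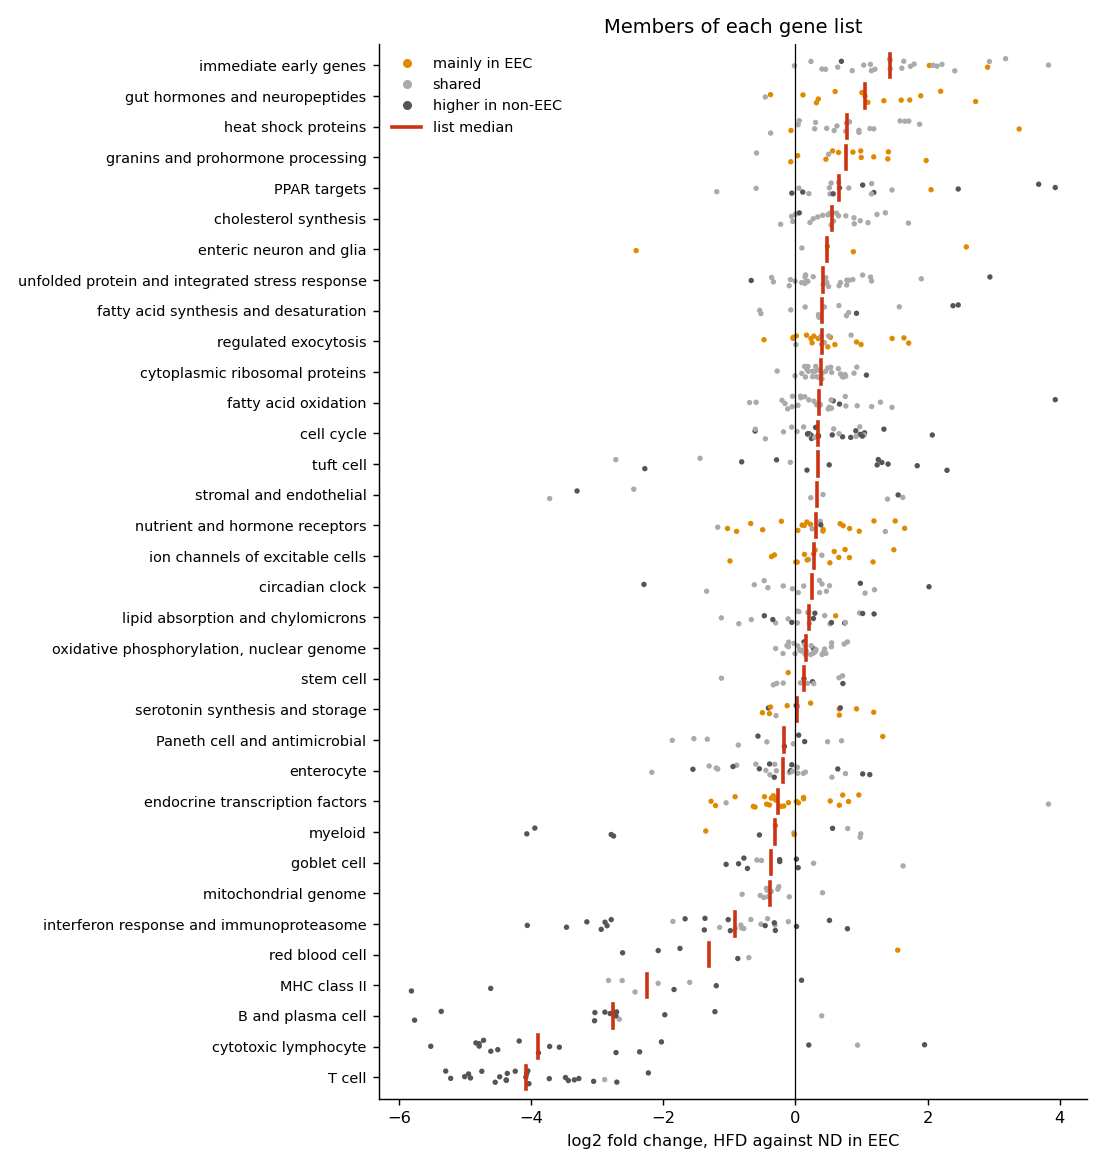
Each point is a tested member of a gene list, the x axis gives its log2 fold change of HFD against ND in EEC, colours give its class (orange for mainly in EEC, light grey for shared, dark grey for higher in non-EEC), and red bars are list medians. Immediate early genes lie furthest right, hormone genes next, and T cell, cytotoxic, B cell and MHC class II genes lie to the left, the first 3 lists mostly in dark grey.

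The difference between the diet effects in EEC and non-EEC was tested directly. The edgeR test called 77 genes with a positive difference (0.451% of those tested) and 8 with a negative one (0.0468%). All 77 were lower under HFD in the non-EEC, 24 of the 77 were also higher in EEC at an unadjusted p below 0.05, and 22 of the 77 were higher in EEC with no overlap between libraries. Of these, 18 met both conditions. The composition of the non-EEC differed between diets as well. Their mean T cell sum was 11238 CPM under ND and 392 CPM under HFD, and their mean enterocyte sum 14294 and 99292 CPM, and the part of this in the difference of effects was not tested. Without ND non-EEC replicate 1 the test called 464 genes with a positive difference and 807 with a negative one, and it called 0 without replicate 2 of ND EEC or ND non-EEC, replicate 1 or 3 of HFD EEC, or replicate 3 of HFD non-EEC. With scaling over genes mainly in EEC the calls were 6 positive and 8 negative, and with limma-voom they were 963 and 1220, so the excess of positive calls did not hold in these alternatives. Man1c1 and Col27a1 were higher in EEC and lower in non-EEC, where they differed by -2.15 ± 0.49 and -1.67 ± 0.50 (adjusted p = 0.0135 and 0.0392). Their differences of effects were 4.47 ± 0.68 and 3.53 ± 0.68 (adjusted p = 0.0247 and 0.0424). For Ptgs2 it was 8.16 ± 1.29 (adjusted p = 0.0253). Glp1r fell in the non-EEC from 93.6, 114 and 149 CPM to 15.5, 2.54 and 3.64 CPM (-4.01 ± 0.63, adjusted p = 0.00307), while its EEC values were higher under HFD, and the difference of effects was 5.37 ± 0.84 (adjusted p = 0.0247). Hspb1 missed the threshold for the difference of effects (4.14 ± 0.92, adjusted p = 0.0699).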

How the data were processed

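RNA from sorted cells was amplified with Ovation RNA-Seq V2, and libraries were made with Ovation SP Ultralow, per the labels' protocols. Upstream tools were HTSeq 0.5.4p3, TopHat2 2.0.10 with Bowtie2 2.1.0, and CASAVA 1.8.2, on mm10, per the submitters' processing notes. The authors deposited raw read counts per Ensembl gene for all 12 libraries. How strand and ambiguous reads were handled, and with which annotation, is not given in the sources used here. Values of near-identical, antisense or overlapping genes are therefore uncertain. GENCODE vM21 gave a symbol and position to 37607 of 39086 identifiers (96.2%).

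Counts were tested with the quasi-likelihood test of edgeR 4.0.16 (R 4.3.3) on 12 libraries and 4 group means, with filterByExpr (17087 genes kept), TMM scaling and Benjamini-Hochberg adjustment at 0.05, which left 8 residual degrees of freedom. The common biological coefficient of variation was 0.536. The fit was tested on simulated data first. CPM used TMM-scaled library sizes. Standard errors are the size of the log2 difference over the square root of the F statistic, which is unreliable near 0. Alternatives used limma 3.58.1 and DESeq2 1.42.0, other scalings and filters, the 6 EEC libraries alone, a replicate block, other class limits and leaving out each library. Classes from the libraries of 1 diet and a replicate block within each diet were added after seeing the data. Figures were drawn with matplotlib 3.10.9.

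The members and gene lists were chosen with earlier results of these data known. A named gene needed a symbol, no overlap between diets and, in the EEC group with the higher level, 10 CPM or more on average. Up to 8 higher and 8 lower genes mainly in EEC, and 6 of each in the other classes, were taken by smallest p. Neurog3, Chga, the measured hormones and up to 4 members of each list by smallest p were added. Unnamed gene models and genes with 3 or fewer counts over both EEC groups were left out. Apoa5, Hpx, Npas4, Aqp9, Arc and Mgll were added after their values were seen. Of the genes the rule names, 1 is not reported here. Promoter sequences are RefSeq's for GRCm38.p6.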

Additional observations from a re-analysis of the deposited data

Results flagged for a closer look

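For 7 named genes the diet effect differed between EEC and non-EEC by a test of the difference itself (edgeR's quasi-likelihood test, Benjamini-Hochberg adjustment). The difference of effects, EEC minus non-EEC on the log2 scale, was 8.37 ± 1.27 for Aqp9 (adjusted p = 0.0275), 8.16 ± 1.29 for Ptgs2 (adjusted p = 0.0253) and 7.55 ± 1.39 for Egr3 (adjusted p = 0.0402). It was 5.37 ± 0.84 for Glp1r (adjusted p = 0.0247), 4.47 ± 0.68 for Man1c1 (adjusted p = 0.0247), 3.71 ± 0.67 for the potassium channel gene Kcnh2 (adjusted p = 0.0363) and 3.53 ± 0.68 for Col27a1 (adjusted p = 0.0424). Apart from Kcnh2, each stood higher in all HFD EEC libraries than in any ND EEC library. The naming rule required this of Ptgs2, Man1c1 and Col27a1, and Aqp9 was picked after its values were seen. All 7 genes had a lower mean under HFD in non-EEC. The composition of the non-EEC also differed between diets, with a mean T cell sum of 11238 CPM under ND and 392 CPM under HFD. The part of this in the 7 differences was not tested. With certain single libraries left out, listed below, the test of the difference called 0 genes. Aqp9 had 0 counts in every HFD non-EEC library, so its fitted difference depends on the prior count and is no bound. Kcnh2 overlapped between diets in EEC. It stood at 18.8, 20.1 and 10.2 CPM in ND EEC and 34.7, 16.3 and 26.2 CPM in HFD EEC, and at 3.66, 4.81 and 7.85 CPM and 0.723, 0.634 and 0.569 CPM in the non-EEC.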

How the results depend on the processing

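The count of genes called in EEC (0 by edgeR) depended on the processing. It was 129 with scaling over genes mainly in EEC (9 higher, 120 lower), 270 without a filter on low counts (35 and 235), 465 with DESeq2 (143 and 322) and 8 with limma-voom (7 and 1). For the difference of diet effects (85 genes) these gave 14, 362, 1061 (596 positive, 465 negative) and 2183 (963 and 1220). Genes mainly in EEC at an unadjusted p below 0.05 were 122 higher and 29 lower. The higher count was 56 with scaling over genes mainly in EEC, 77 with at least 5 CPM in 3 libraries, 349 with limma-voom and 221 with only the 6 EEC libraries, and the lower count was 16, 67 and 45 with the last 3. With the scaling over genes mainly in EEC their median was -0.033, the shared median -0.25, and the non-overlapping genes 622 higher and 1694 lower. Shared genes that were higher (442) numbered 123 with that scaling and 781 with limma-voom. Genes higher in non-EEC that were higher (153) numbered 74 with at least 5 CPM and 76 with 6 libraries, and those lower (517) numbered 326 with 6 libraries. A class limit of 1 gave 3084 genes mainly in EEC, with 185 higher and 50 lower, and a limit of 3 gave 1178, with 14 lower. Classes from the ND libraries alone, added after seeing the data, gave 49 lower.

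Leaving out 1 library gave 0 to 217 genes called in EEC and 0 to 1271 for the difference of effects, the highest without ND EEC replicate 3 and ND non-EEC replicate 1. The difference of effects had 0 calls without replicate 2 of ND EEC or ND non-EEC, replicate 1 or 3 of HFD EEC, or replicate 3 of HFD non-EEC. Genes mainly in EEC ranged from 59 to 159 higher and 15 to 39 lower, shared genes from 238 to 503 higher and 217 to 513 lower, and genes higher in non-EEC from 95 to 223 higher. The shared median ranged from -0.054 to 0.0082 and that of genes higher in non-EEC from -0.75 to 0.00. The causes were not tested.

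Of 113 named genes, 5 changed direction in at least 1 alternative. Gcg (-0.25) and Nmu (-0.088) did so with scaling over genes mainly in EEC and Nmb (0.083) with the replicate block. With 1 library left out Gcg ranged from -0.61 to 1.08, Nmu from -0.37 to 0.96, Sst from -0.50 to 1.95 and Ucn3 from -0.12 to 1.98. Same-numbered ND and HFD EEC libraries had correlated deviations of 0.18, 0.13 and 0.02, so the numbers were not taken to pair these samples. Same-numbered EEC and non-EEC libraries had 0.25, 0.24 and 0.23 under HFD and 0.14, 0.23 and -0.01 under ND. Differently numbered ones ranged from -0.20 to -0.035 under HFD and from -0.22 to 0.11 under ND. Same-numbered fractions of a diet may thus be linked, under HFD above all, and the main fit treated all 12 libraries as independent. A replicate block within each diet, added after seeing the data, called 84 genes for the difference of effects (64 positive, 20 negative). A replicate block gave 0 genes called in EEC and 61 for the difference of effects. The 70 tested genes with 3 or fewer counts over the EEC libraries carry no usable fold change in EEC.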
